A study of Mus musculus with 35 samples.

Results

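Pou5f1, Sox2, Nanog and Sall4 are the transcription factors at the core of the pluripotency network, and their levels are described here across induced pluripotent stem (iPS) clones, embryonic stem (ES) cells and the somatic cells from which the clones were made. They were found by their gene names in the array design: 5 of the 41174 gene probes carry 1 of these 4 names, among 27962 gene names in all. Pou5f1, Sox2 and Nanog have 1 probe each, and Sall4 has 2. All 5 probes passed the filter on dim signals, which kept 27623 probes for testing.

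RNA from 35 samples was hybridized in 1 colour (Cy3) to Agilent mouse arrays, with 1 array for each sample. The 30 iPS clones made 6 groups of 5, from 3 cell sources and with either of 2 sets of retroviral factors, and the series asked how the source of the cells and the factor set affect the clones. PaS cells are bone marrow mesenchymal stem cells sorted as CD45-Ter119-PDGFRa+Sca-1+, OP cells are osteo-progenitors of the same marrow sorted as CD45-Ter119-PDGFRa-Sca-1-, and TTF are cultured tail tip fibroblasts. All sources came from 6-week-old mice carrying a reporter in which Nanog drives GFP and puromycin resistance, and were infected with pMX-based retroviruses for Oct3/4 (the product of Pou5f1), Sox2 and Klf4, with c-Myc added in the 4F groups and left out in the 3F groups. A DsRed vector was given to all of them. Every clone is thus a single line grown out under puromycin, a selection that acts through the reporter of 1 of the 4 genes described, and was kept on mitomycin-C-treated SNL feeder cells. The paper states that the clones it characterized were picked at random among colonies positive for the Nanog reporter GFP and negative for DsRed. The comparison samples were 1 array each of the ES lines EB-3 and RF8 (RF 8 in the labels) and 1 array each of primary PaS, OP and TTF cells, so that neither an ES line nor a source has a replicate of its own. Whether clones of a group were sister colonies, or how many mice gave the cells, is not given in the sources used here, and p-values measure the spread between these arrays only.

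Pou5f1 encodes a POU-domain protein and Sox2 an HMG-box protein, which bind DNA side by side on composite octamer and Sox motifs near many genes of ES cells, including their own and Nanog. Nanog encodes a homeodomain protein that lets ES cells renew themselves with less outside signal, and Sall4 encodes a zinc finger protein that binds with the others and helps to keep Pou5f1 expressed. Most somatic cells keep these genes silent, though the paper names neural stem cells as expressing Sox2 of their own. The return of these genes from the cells' own chromosomes is a hallmark of reprogramming.

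The levels below are read by short probes, so the target of each probe decides what RNA it sees. Each probe has 60 bases, and the array design places it on mouse build mm7. The Pou5f1 probe lies at chr17:33612047-33612107 on the + strand, an interval 1 position longer than the probe. The Sox2 probe lies at chr3:34459231-34459290 and the Nanog probe at chr6:122750894-122750953, both on the + strand. The main Sall4 probe, the brighter of the pair over clones and ES cells, lies at chr2:168541487-168541546, and the second Sall4 probe at chr2:168545326-168545385, both on the - strand. Their sequences are shown because Pou5f1 and Sox2 were also delivered by retrovirus, and a probe inside a coding sequence reads vector and chromosomal RNA alike. The Pou5f1 probe and the second Sall4 probe are given whole, and of the others the first 30 bases.
Pou5f1: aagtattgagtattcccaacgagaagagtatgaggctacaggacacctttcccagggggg
Sox2: tggcaatcaaatgtccattgtttataagct
Nanog: cttctgagctctatttacaacttggtgtgt
Sall4, main probe: tgcgaccacccaagtattgccaggtcttaa
Sall4, second probe: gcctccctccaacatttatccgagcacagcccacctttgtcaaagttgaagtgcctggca
The Pou5f1 probe reads without a stop codon in 2 of its 3 forward frames, as both Sall4 probes do, the Sox2 probe in 1 and the Nanog probe in none. Using RT-PCR, the paper saw no transgene expression left in PaS-iPS clones, but some clones made from OP cells or TTF had not fully silenced theirs. The levels of Pou5f1 and Sox2 below are those of all RNA the probe sees, and were not split by origin. How much vector RNA contributed to the signals of Pou5f1 and Sox2 was not tested.

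Levels are log2 of the background-subtracted intensity relative to the 75th percentile of the same array. A level of 0 is thus as bright as the 75th percentile, and each step of 1 is a doubling. Levels are compared within a probe only. A signal that the scanner software did not flag as well above background gives only a bound. The arrays lay on 10 slides, and the clones were scanned in 1 session on 8 of them, while EB-3 and the primary cells shared another session and RF8 had its own. Clones and ES cells therefore differ in session as well as in kind, and these cannot be told apart. Between 56.6% and 71.1% of the probes of an array were well above background. Over 20 markers of fibroblasts and feeder cells, 12 were well above background in EB-3, 20 in RF8 and 19 or 20 in every clone, and their mean level relative to the ES mean was -2.15 in EB-3, 2.15 in RF8 and 1.63 to 4.77 in clones. In such bulk RNA, fewer expressing cells and less RNA per cell cannot be told apart. The labelled sorts were checked too: primary OP cells had Pdgfra and Ly6a (Sca-1) well above background, at 1.58 and 3.54, against 0.98 and 5.58 in primary PaS cells, and Ptprc (CD45) was well above background in primary PaS cells at -5.74 and in primary TTF cells at 4.14, but not in primary OP cells. As RNA, Pdgfra and Ly6a in OP cells and Ptprc in TTF cells thus go against the labels, which were kept. The paper expanded the sorted cells in culture before infection. Whether the primary cells on these arrays had been expanded is not stated, and the cause was not tested.

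In the source cells, before reprogramming, 4 of the 5 probes gave no signal well above background: those of Pou5f1, Sox2 and Nanog and the main Sall4 probe were dim in primary PaS, OP and TTF cells alike. The 10 clones of each source were compared with their primary cells as bounds, with each dim signal of the primary array raised to the lowest well-above-background signal of that array. Pou5f1 was on average at least 1944-fold higher in PaS-iPS clones than in PaS cells, and the lower bound was 577-fold for OP-iPS and 624-fold for TTF-iPS clones. For Sall4 the lower bounds were 671-fold (PaS), 236-fold (OP) and 344-fold (TTF). For Sox2 and Nanog, which were dim in 2 of the OP-iPS clones and 1 of the TTF-iPS clones, a lower bound was had for PaS-iPS clones only, and it was 604-fold for Sox2 and 648-fold for Nanog. Pou5f1 and Sall4 were well above background, and above the primary level used, in all 10 clones of each source. For Sox2 and Nanog this held in 10 PaS-iPS, 8 OP-iPS and 9 TTF-iPS clones, and the dim signals of the others do not place them above or below the primary cells. Only the second Sall4 probe was well above background in the primary cells, at -3.25 in PaS, -2.94 in OP and -3.03 in TTF cells, and the clones exceeded them 4.63-fold, 2.74-fold and 4.58-fold. With 1 array for each source, none of these differences has a test.

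Pou5f1, without which the inner cell mass does not stay pluripotent, was well above background in all 30 clones. In PaS-iPS clones its level was 4.61, 4.71, 3.08, 5.22 and 3.80 in 4F-clones #1 to #5, and 3.90, 2.92, 3.01, 2.83 and 3.51 in 3F-clones #1 to #5. In OP-iPS clones the 4F values were 2.86, -1.96, 1.96, 4.57 and 3.71 and the 3F values 2.85, 2.71, 3.47, 3.30 and 3.47. In TTF-iPS clones they were 1.34, 2.11, 3.80, 2.95 and 2.96 with 4F and 1.97, 2.36, 3.01, 3.13 and 3.04 with 3F. 1 clone stood apart, 4F-OP-iPS #2, in which Pou5f1 was the lowest of all by a wide margin, while the 4F-PaS-iPS group held the 3 highest values. The ES lines themselves were far apart, at 4.76 in EB-3 and 1.88 in RF8. From high to low, the group means were 4.28 ± 0.84 in 4F-PaS-iPS, 3.23 ± 0.46 in 3F-PaS-iPS, 3.16 ± 0.36 in 3F-OP-iPS, 2.70 ± 0.51 in 3F-TTF-iPS, 2.63 ± 0.94 in 4F-TTF-iPS and 2.23 ± 2.54 in 4F-OP-iPS clones (SD, n = 5 each). Of these neighbours, only the first pair differed by more than both their SDs, and that difference of -1.05 for 3F against 4F in PaS-iPS clones had an adjusted p of 0.485 in limma.

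Sox2, the partner of Pou5f1 on DNA, varied far more. Its level was 2.47, 3.15, 2.61, 3.23 and 2.50 in 4F-PaS-iPS clones #1 to #5, and 2.77, 2.17, 0.41, 0.54 and 0.88 in the 3F-PaS-iPS clones. In 4F-OP-iPS clones it was -8.09, -2.04, -8.21, 3.14 and 2.24, and in 3F-OP-iPS clones 0.47, 1.45, 2.26, 2.86 and 2.52. In 4F-TTF-iPS clones it was -5.27, 0.21, 1.82, 1.13 and 1.76, and in 3F-TTF-iPS clones 1.58, 1.87, 2.79, 2.30 and 2.05. The values of 4F-OP-iPS #1 and #3 and of 4F-TTF-iPS #1 were not well above background and count only as bounds, while 4F-OP-iPS #2 was measured and low. Within PaS-iPS clones the 4F and 3F values overlapped, but 3 of the 3F-clones lay below every 4F-clone by more than the whole 4F range. EB-3 and RF8 were close together, at 3.84 and 3.71. With dim values at their measured level, the group means were 2.79 ± 0.37 in 4F-PaS-iPS, 2.12 ± 0.46 in 3F-TTF-iPS, 1.91 ± 0.96 in 3F-OP-iPS, 1.35 ± 1.06 in 3F-PaS-iPS, -0.07 ± 2.98 in 4F-TTF-iPS and -2.59 ± 5.44 in 4F-OP-iPS clones (SD, n = 5 each). Only the first neighbours in that order lay farther apart than both their SDs.

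Nanog, whose reporter was used to select the clones, followed the same clones. In PaS-iPS clones its level was 1.49, 3.46, 2.39, 2.61 and 3.68 with 4F, and 2.91, 1.92, 1.18, 0.77 and 1.33 with 3F. In OP-iPS clones it was -6.13, -3.30, -8.24, 3.33 and 1.83 with 4F, and 0.76, 1.29, 2.86, 2.96 and 2.44 with 3F. In TTF-iPS clones it was -6.06, -0.89, 1.32, 0.76 and 1.35 with 4F, and 0.98, 1.75, 2.35, 2.49 and 2.38 with 3F. The 3 clones whose Sox2 was not well above background were the ones whose Nanog was not, and 4F-OP-iPS #2 and 4F-TTF-iPS #2 had the lowest measured Nanog. EB-3 had 4.38 and RF8 2.72. The group means ran from 2.73 ± 0.88 in 4F-PaS-iPS through 2.06 ± 0.98 in 3F-OP-iPS, 1.99 ± 0.63 in 3F-TTF-iPS and 1.62 ± 0.83 in 3F-PaS-iPS to -0.70 ± 3.13 in 4F-TTF-iPS and -2.50 ± 4.99 in 4F-OP-iPS clones (SD, n = 5 each). No neighbours in this order differed by more than the larger of their SDs.

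Sall4 varied least of the 4 genes from clone to clone. By its main probe, its level was 3.0, 2.03, 2.01, 3.0 and 1.87 in 4F-PaS-iPS and 2.00, 1.95, 1.87, 2.22 and 2.28 in 3F-PaS-iPS clones. It was 0.44, 2.65, 0.49, 2.05 and 1.51 in 4F-OP-iPS and 0.27, 2.01, 1.2, 1.54 and 1.86 in 3F-OP-iPS clones. It was 2.01, 2.07, 2.34, 1.84 and 1.67 in 4F-TTF-iPS and 1.87, 1.47, 1.62, 1.82 and 1.38 in 3F-TTF-iPS clones. The highest values, in 4F-PaS-iPS #1 and #4, came from a slide that held these arrays only. The 3 lowest were OP-derived, 3F-OP-iPS #1 and 4F-OP-iPS #1 and #3, whereas 4F-OP-iPS #2, lowest for Pou5f1, was next below this pair for Sall4. EB-3 had 3.50 and RF8 2.86. The group means were 2.38 ± 0.57 in 4F-PaS-iPS, 2.07 ± 0.18 in 3F-PaS-iPS, 1.98 ± 0.25 in 4F-TTF-iPS, 1.63 ± 0.21 in 3F-TTF-iPS, 1.43 ± 0.96 in 4F-OP-iPS and 1.38 ± 0.69 in 3F-OP-iPS clones (SD, n = 5 each). Only the TTF-iPS groups, as neighbours, differed by more than both their SDs, and their difference of -0.35 for 3F against 4F did not pass in limma (adjusted p = 0.555).

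**Figure D1:**
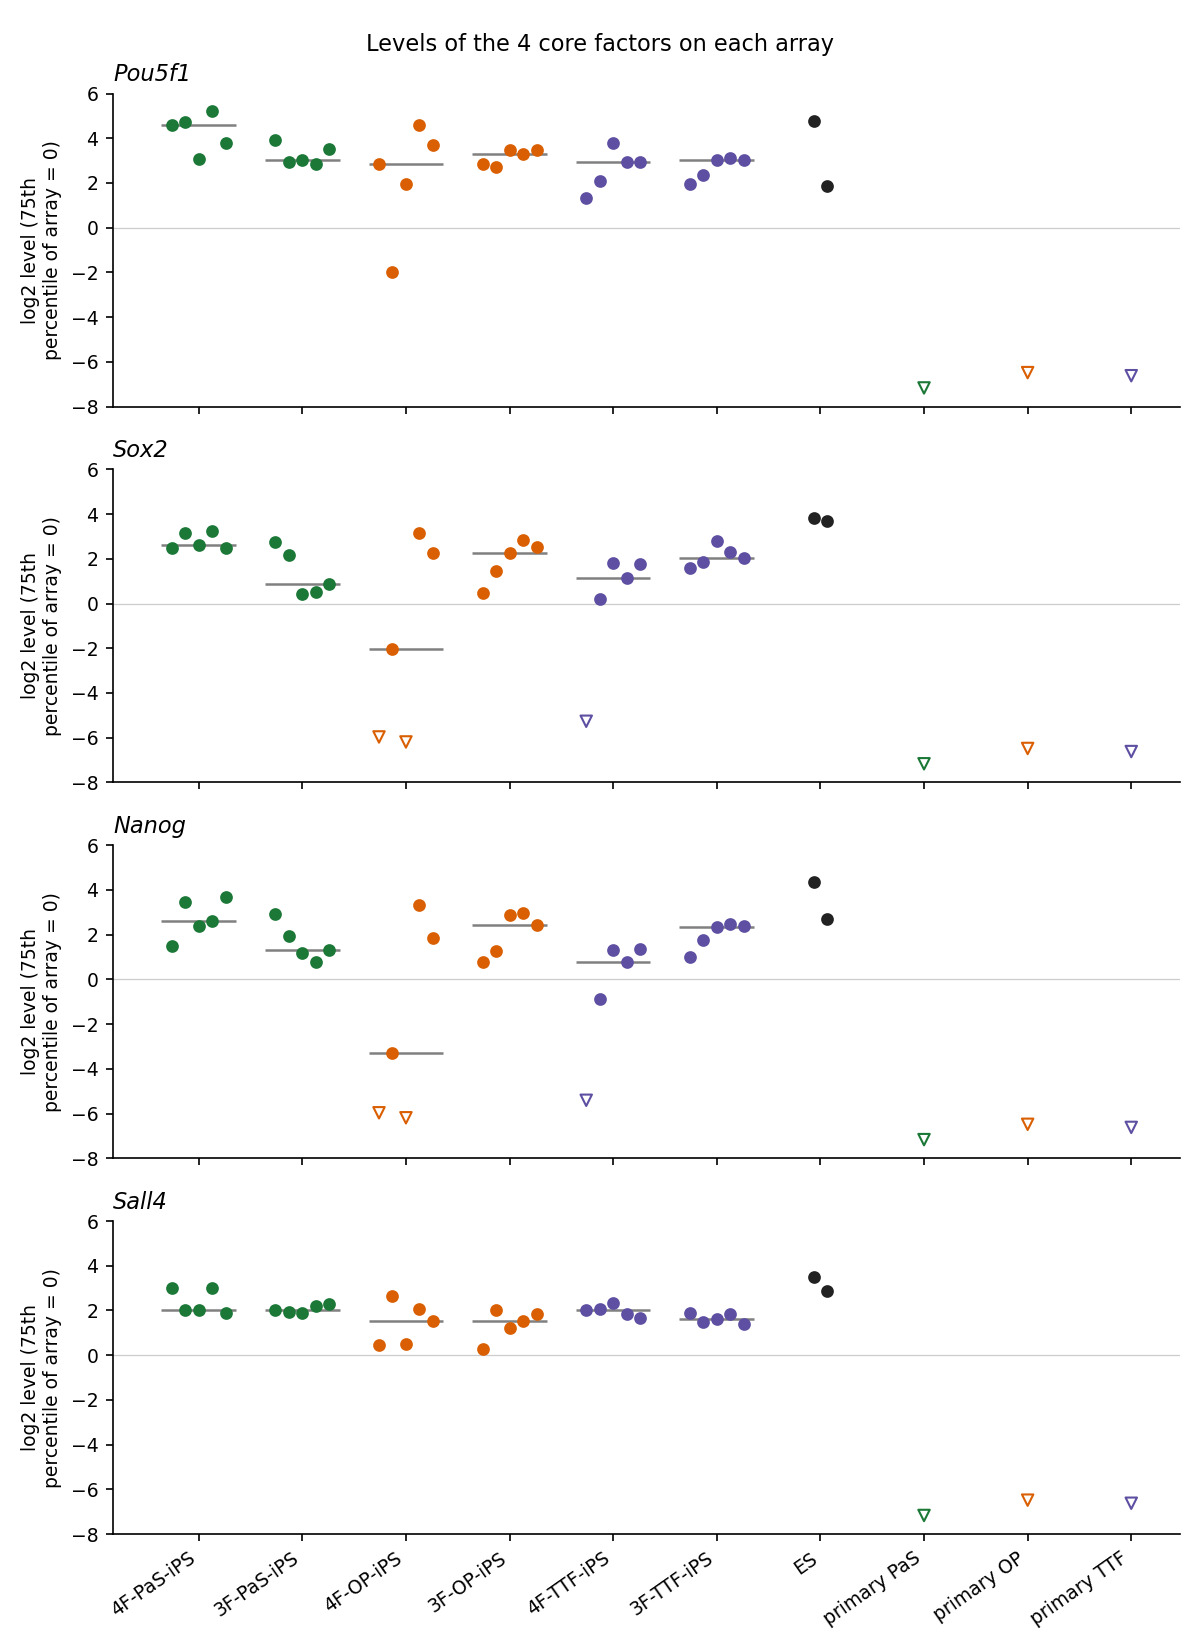
Log2 level relative to the 75th percentile of the array (vertical axis) of Pou5f1, Sox2, Nanog and the main Sall4 probe, for 5 clones in each of 6 groups, both ES lines and 3 primary cell samples. Open symbols are not well above background; Sox2 and Nanog reach below -5 in 3 of the 4F-clones, while among the clones Pou5f1 lies below 0 in 4F-OP-iPS #2 only.

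How widely a gene varied was set against all tested probes. Over the 30 clones, with dim values at their measured level, the SD of the log2 level was 3.0 for Sox2 and 2.95 for Nanog, and 0.141% and 0.152% of the 27623 tested probes had an SD at least as large. For Pou5f1 it was 1.28, reached by 7.36% of probes. The main Sall4 probe had an SD of 0.63 and the second 0.46, reached by 33.8% and 50.8% of probes, and the median over all tested probes was 0.47. With every dim signal at its bound, the SD was 2.58 for Sox2 and 2.68 for Nanog, reached by 0.163% and 0.123% of probes, 1.28 for Pou5f1 (4.78%) and 0.63 for the main Sall4 probe (26.6%). On either scale the SDs of Sox2 and Nanog were reached by under 1% of the tested probes. Between the ES lines the order was another: EB-3 exceeded RF8 by 2.89 for Pou5f1, a difference reached in size by 5.29% of probes, by 1.66 for Nanog, by 0.64 and 0.81 for the Sall4 probes and by 0.13 for Sox2.

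The comparison with ES cells asks how near each clone came to the state it was reprogrammed to. Sox2 lay below both ES arrays in all 30 clones, Sall4 in 28 by its main probe and Nanog in 24. For 14.4% of all tested probes every clone lay below both ES arrays, and for 9.99% every clone lay above both. Pou5f1 lay between the ES arrays in 27 clones, above both in 1 (4F-PaS-iPS #4) and below both in 2 (4F-TTF-iPS #1 and 4F-OP-iPS #2). Relative to the mean of the ES arrays, at least a 2-fold lower level was seen in 25 clones for Sox2, in 24 for Sall4, in 23 for Nanog and in 5 for Pou5f1. On the log2 scale, the median clone stood at -1.82 for Sox2, -1.93 for Nanog, -1.31 for Sall4 and -0.30 for Pou5f1 relative to that mean.

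**Figure D2:**
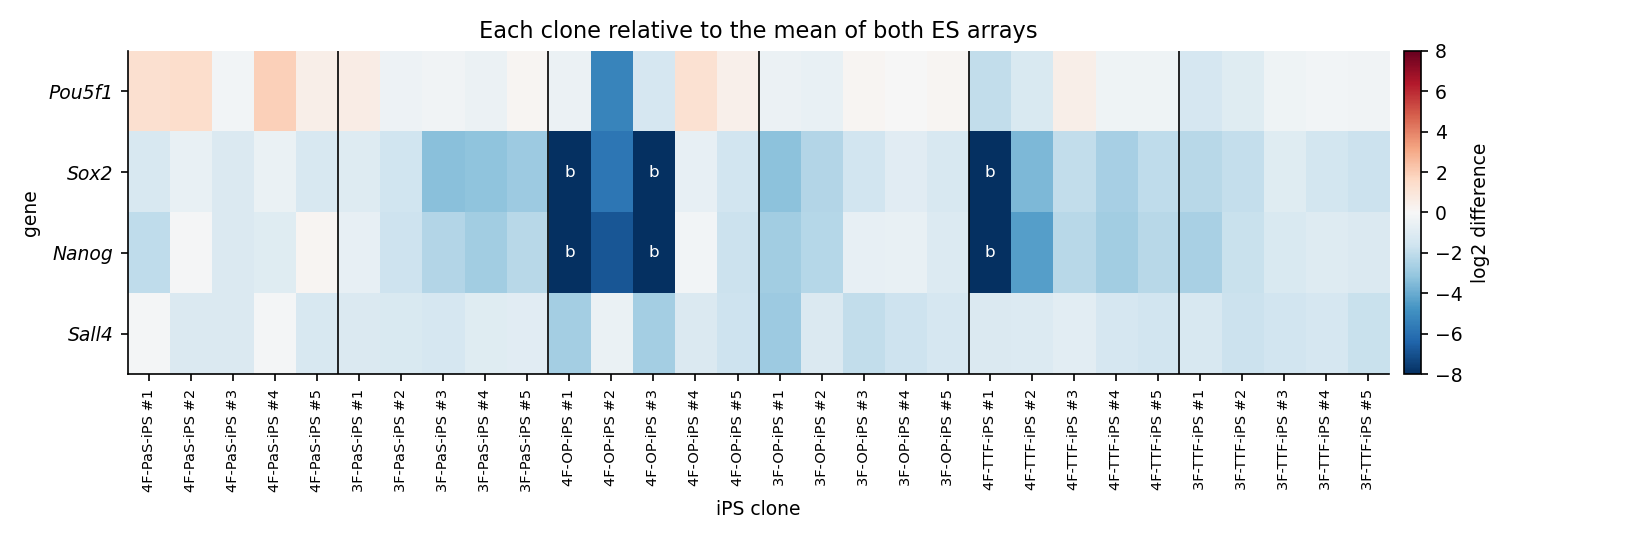
Log2 difference from the mean of both ES arrays (colour scale, from -8 to 8) for 4 genes (rows, Sall4 by its main probe) in 30 clones (columns, lines between the 6 groups). The letter b marks a signal not well above background; Sox2 is lower than in ES cells in every clone, and Pou5f1 is at least 8-fold lower in 1 clone.

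In the limma fit over all clones and ES arrays, only Sall4 passed among the 4 genes. A probe was called at an adjusted p under 0.05 and at least 2-fold, which 36.2% of the tested probes were for clones against ES cells. The main Sall4 probe was lower in clones, at -1.37 (SE 0.395, adjusted p = 0.00515 in limma). The second Sall4 probe gave 0.42 in the other direction (SE 0.290, adjusted p = 0.231 in limma), and without EB-3 the main probe gave -1.05 (adjusted p = 0.138), so that the call rests on 1 probe and 1 ES array. Sox2 differed by -2.86 (SE 1.79, adjusted p = 0.182) and Nanog by -2.68 (SE 1.72, adjusted p = 0.193) in limma, with SEs that hold the spread of the low clones. Pou5f1 differed by -0.28 (SE 0.871, adjusted p = 0.802 in limma), by 1.16 when only RF8 was kept and by -1.72 when only EB-3 was kept.

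Among sources, the 4 genes were all higher in PaS-iPS than in OP-iPS clones on average, and none passed the test. The difference was 2.41 for Sox2 (SE 1.09, adjusted p = 0.197), 2.39 for Nanog (SE 1.05, adjusted p = 0.183), 1.07 for Pou5f1 (SE 0.533, adjusted p = 0.246) and 0.82 for Sall4 (SE 0.242, adjusted p = 0.0533) in limma. Without 4F-OP-iPS #2 that of Pou5f1 was 0.54. The second Sall4 probe gave 0.44 (SE 0.178, adjusted p = 0.143 in limma). The adjusted p of the main Sall4 probe in limma fell to 0.0465 after quantile normalization, to 0.0486 with a floor under dim signals and to 0.00568 without 4F-OP-iPS #2, where its difference of 0.97 stayed under the 2-fold minimum. With normexp background correction the differences were 1.34 for Sox2 and 1.42 for Nanog. Before adjustment 3 of the 4 genes, Nanog, Sall4 and Sox2, had a p under 0.05 in this fit, as had 5944 of the 27623 probes, and 1.6% of all tested probes were called after adjustment and at 2-fold. The OP-iPS average rests on its spread: 7 of the 10 OP-iPS clones had Nanog between 0.76 and 3.33, within the range of PaS-iPS clones from 0.77 to 3.68 but for 1 value, and the other 3 lay below -3. Leaving out 4F-OP-iPS #4, the OP-derived clone with the highest levels of Sox2, Nanog and Pou5f1, took Sox2 to 3.13 and Nanog to 3.12, both called (adjusted p = 0.0469 and 0.0363 in limma). Leaving out 4F-OP-iPS #3, in which both were dim, took them to 1.71 and 1.68 (adjusted p = 0.391 and 0.372 in limma). Against TTF-iPS clones the PaS-iPS differences ran from 0.41 to 1.53 and the OP-iPS differences from -1.37 to 0.03, with 0 of the 4 genes called in limma, 0 with an unadjusted p under 0.05, and 0.5% and 0.0217% of tested probes called. These shares come from the fit without the slide, and how they moved with the processing is given at the end. The value of -1.37, for Sox2, includes the dim signals of 4F-OP-iPS #1 and #3 and of 4F-TTF-iPS #1. Without 4F-TTF-iPS #1 the PaS-iPS differences from TTF-iPS clones were 0.86 for Nanog, against 1.53, and 0.40 for Sox2, against 1.05.

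The factor set, with or without c-Myc, was compared as 3F- against 4F-clones. Over all sources Nanog was 2.05 higher (SE 0.859, adjusted p = 0.0877) and Sox2 1.75 higher (SE 0.893, adjusted p = 0.164) with 3F in limma, and Pou5f1 and Sall4 differed by -0.02 and -0.24. With normexp background correction the values were 1.27 for Nanog and 0.97 for Sox2. 5.34% of tested probes were called in this comparison and none of the 4 genes, of which Nanog had an unadjusted p under 0.05, as had 9569 of the 27623 probes. No 3F-clone had a dim signal of any of the 4 genes, whereas 3 of the 15 4F-clones had dim Sox2 and Nanog. Within sources the direction was not the same: in PaS-iPS clones the 3F-clones had the lower means, by -1.44 for Sox2, -1.10 for Nanog and -1.05 for Pou5f1, and 0.0181% of probes were called. In OP-iPS clones Nanog was 4.57 higher (SE 1.49, adjusted p = 0.0549) and Sox2 4.50 higher (SE 1.55, adjusted p = 0.0672) with 3F in limma, where 4.51% of probes were called, and with normexp the values were 2.77 and 2.47. Without 4F-OP-iPS #3 they were 3.13 for Nanog and 3.1 for Sox2. In TTF-iPS clones, where 5.77% were called, the differences were 2.69 and 2.19, or 1.35 for Nanog and 0.89 for Sox2 without 4F-TTF-iPS #1, in which both were dim. These shares come from the fit without the slide, and with the slide as a random block the probes called dropped from 1246 to 168 in OP-iPS and from 1595 to 7 in TTF-iPS clones. In PaS-iPS and in TTF-iPS clones 0 of the 4 genes had an unadjusted p under 0.05 in limma.

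Whether the effect of the factor set differed between sources was tested as an interaction. For OP-iPS minus PaS-iPS clones it was 5.94 for Sox2 (SE 2.19, adjusted p = 0.144) and 5.67 for Nanog (SE 2.10, adjusted p = 0.148) in limma, with 0.648% of probes called. Both genes had an unadjusted p under 0.05, as had 5221 of the 27623 probes, and neither passed after adjustment. For TTF-iPS minus PaS-iPS clones the interactions of the 4 genes ran from -0.03 to 3.80, with 0.583% of probes called, and for TTF-iPS minus OP-iPS clones from -2.32 to -0.30, with 0% called and 1028 of the 27623 probes at an unadjusted p under 0.05 in limma. The value of 3.80, for Nanog, includes the dim 4F-TTF-iPS #1, without which the TTF-iPS difference was smaller, as given above. The OP-iPS values turned on single clones: without 4F-OP-iPS #4 the 3F to 4F difference in OP-iPS clones was 6.02 for Nanog and 5.94 for Sox2, and the interactions of 7.13 and 7.38 were called (adjusted p = 0.0233 and 0.0256 in limma). With normexp the interactions were 3.70 for Nanog and 3.69 for Sox2. In none of the 3 sources did 4F- and 3F-clones share a slide, and within PaS-iPS and within OP-iPS clones a fit with the slide as a fixed term could not tell factor set and slide apart. In TTF-iPS clones, through slides shared with other sources, and for the interaction of OP-iPS with PaS-iPS clones it could, and called none of the 4 genes. In TTF-iPS clones the difference of 3F from 4F then turned to -1.15 for Nanog (SE 4.78) and -0.69 for Sox2 (SE 5.04).

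**Figure D3:**
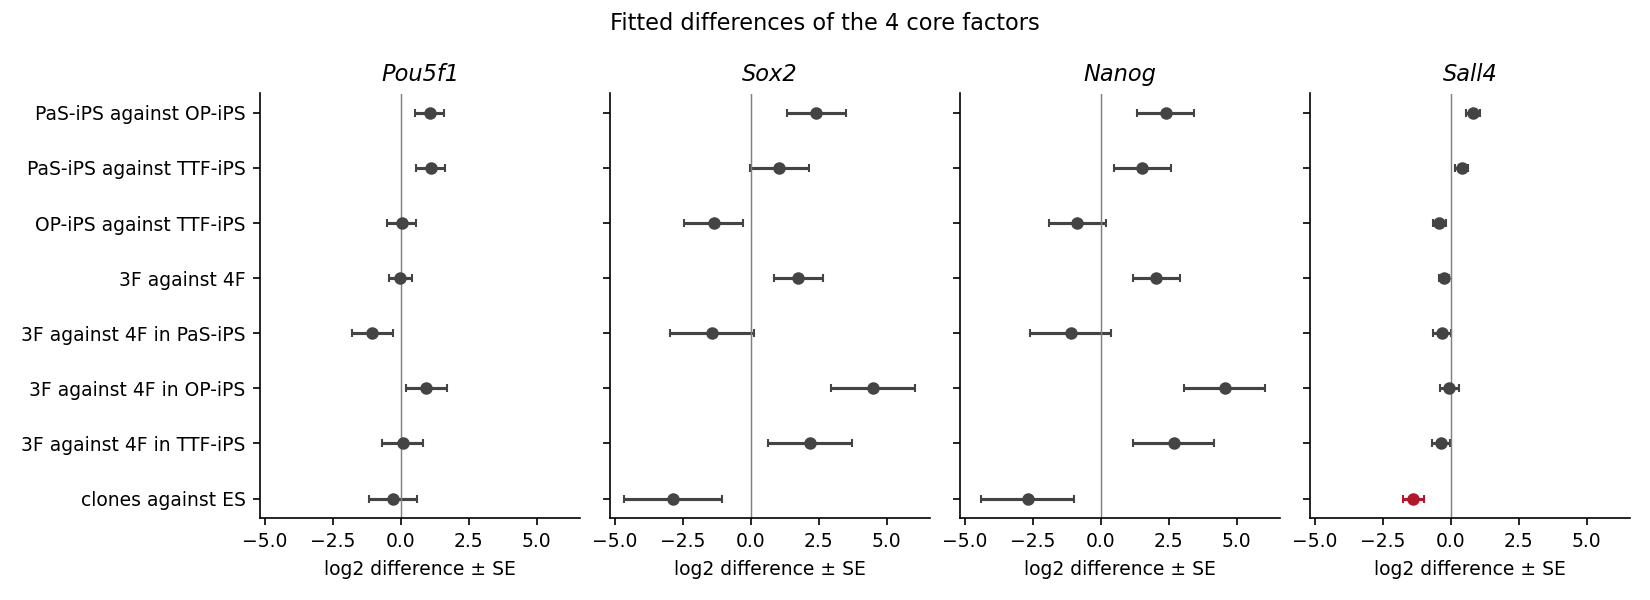
Fitted log2 differences (points, horizontal axis) with their SE (bars) for Pou5f1, Sox2, Nanog and the main Sall4 probe in 8 comparisons (rows); positive values are higher in the first-named group. The red point, Sall4 in clones against ES cells at -1.37, is the only one called; Sox2 and Nanog have the widest bars.

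The second Sall4 probe was read in the same arrays. Its level was -0.83, -1.03, -0.77, -0.84 and -1.32 in 4F-PaS-iPS and -1.04, -0.97, -1.03, -1.31 and -1.27 in 3F-PaS-iPS clones. In OP-iPS clones it was -2.10, -0.30, -2.09, -1.37 and -1.14 with 4F and -2.26, -1.34, -1.48, -1.52 and -1.25 with 3F. In TTF-iPS clones it was -0.37, -0.58, -0.61, -0.83 and -1.01 with 4F and -0.61, -1.16, -1.20, -1.0 and -0.98 with 3F. As with the main probe, 3F-OP-iPS #1 and 4F-OP-iPS #1 and #3 were the lowest clones, and here 4F-OP-iPS #2 was the highest. The ES lines had -1.13 (EB-3) and -1.94 (RF8), so that 16 clones lay above both, 11 between and 3 below. Over the 30 clones the probes had a Pearson's r of 0.769 (two-sided permutation p = 1e-05, the lowest value possible here) and a Spearman's rho of 0.542 (p = 0.00226). The probes thus went together over the clones but disagreed on the direction of the difference from ES cells. Whether they read different transcripts was not tested.

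**Figure D4:**
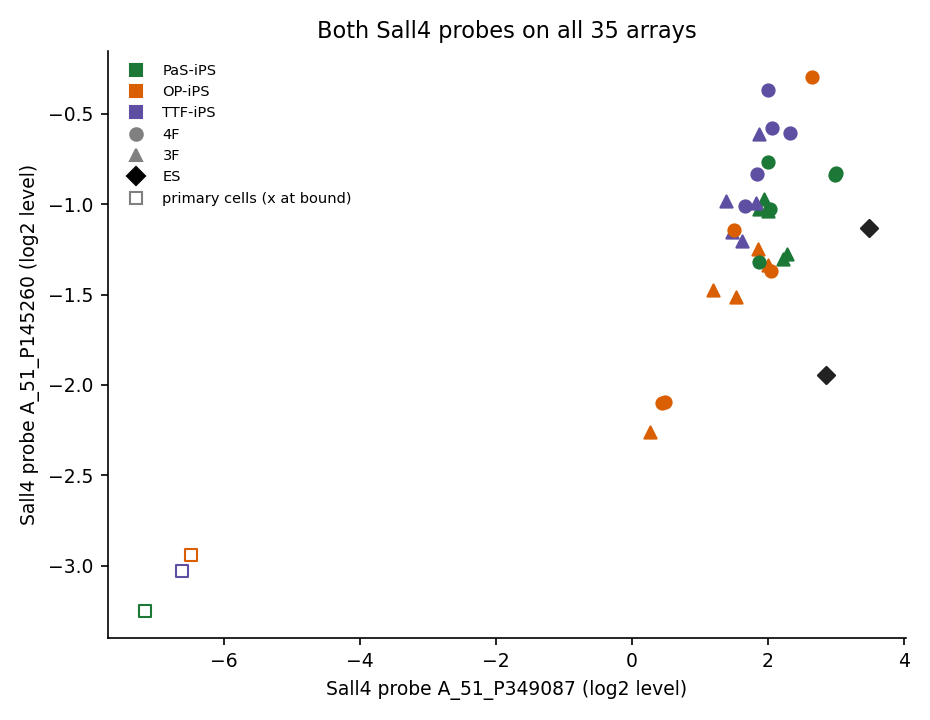
Log2 level of the main (horizontal axis) against the second Sall4 probe (vertical axis) on 35 arrays, each axis relative to the 75th percentile of the array. Clones lie along a rising line with r = 0.769, both ES arrays (diamonds) to the right of nearly all clones but not above them, and the primary cells (squares, at their bound on the horizontal axis) at the lower left.

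How the 4 genes varied together from clone to clone was asked of 6 pairs, over the clones in which both genes were well above background. Sox2 and Nanog had the closest relation, with r = 0.925 and rho = 0.902 over 27 clones (permutation tests, two-sided, p = 1e-05 each, the smallest they can give). Pou5f1 went with both, with r = 0.820 for Sox2 (permutation p = 1e-05; rho = 0.733, p = 6e-05) and r = 0.822 for Nanog (permutation p = 3e-05; rho = 0.728, p = 6e-05), again over 27 clones. These p-values are not adjusted for the 6 pairs. Without the 2 clones farthest from the median of the first gene, r was 0.840 for Sox2 and Nanog (permutation p = 1e-05), 0.612 for Pou5f1 and Sox2 (permutation p = 0.00101) and 0.628 for Pou5f1 and Nanog (permutation p = 0.0007). Of single clones, 4F-OP-iPS #2 weighed most, and without it r was 0.863, 0.651 and 0.611. The 3 genes thus varied together also among the clones in which all of them were well above background.

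By its main probe, Sall4 passed 0.05 with none of the others over the clones in which both genes were well above background. Its r was 0.118 with Pou5f1 over 30 clones (permutation p = 0.507; rho = 0.259, p = 0.167), -0.00953 with Sox2 over 27 (permutation p = 0.960; rho = -0.0140, p = 0.946) and -0.184 with Nanog over 27 (permutation p = 0.331; rho = -0.145, p = 0.469). By the second Sall4 probe, r with Nanog was -0.426 (permutation p = 0.0358). Without the 2 farthest clones the values of the main probe were 0.361, 0.292 and 0.0654, and with 4F-OP-iPS #2 alone left out, the r with Pou5f1 was 0.467 (permutation p = 0.0110). With all 30 clones, dim signals at their bound, the r of Sall4 with Sox2 was 0.419 (permutation p = 0.0244) but rho was 0.145 (p = 0.444), and 4F-OP-iPS #1 and #3 are low in both genes. At the same bounds Sox2 and Nanog had r = 0.980, and Pou5f1 had 0.567 with Sox2 and 0.617 with Nanog. Clone 4F-OP-iPS #1 had Pou5f1 at 2.86 without measurable Sox2 or Nanog. Whether vector RNA gave part of that Pou5f1 signal was not tested.

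Slides and groups were removed next. As deviations from slide means, r was 0.938 for Sox2 and Nanog, 0.900 for Pou5f1 and Sox2 and 0.976 for Pou5f1 and Nanog, and as deviations from group means 0.927, 0.851 and 0.848. Within 4F-clones the r of Pou5f1 with Sox2 was 0.955 over 12 clones, and within 3F-clones 0.345 over 15 (permutation p = 0.210), a difference that was not tested. By source, Sox2 and Nanog had r = 0.806 over 10 PaS-iPS, 0.983 over 8 OP-iPS and 0.953 over 9 TTF-iPS clones (exact or random permutation tests, p = 0.00584, 0.000149 and 5.51e-05). Pou5f1 with Sox2 gave 0.705, 0.941 and 0.481 in these sources, and with Nanog 0.499, 0.962 and 0.492. The relation of Sox2 and Nanog was thus present in each source, and also within 4F-clones (0.962 over 12) and 3F-clones (0.901 over 15). For Pou5f1 neither value passed 0.05 in TTF-iPS clones (exact permutation p = 0.189 and 0.178), nor did the one with Nanog in PaS-iPS clones (permutation p = 0.142). Pou5f1 and Sall4 had 0.669 over 10 PaS-iPS clones (permutation p = 0.0334), of which 4F-PaS-iPS #1 and #4 shared the slide with the highest Sall4 values.

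**Figure D5:**
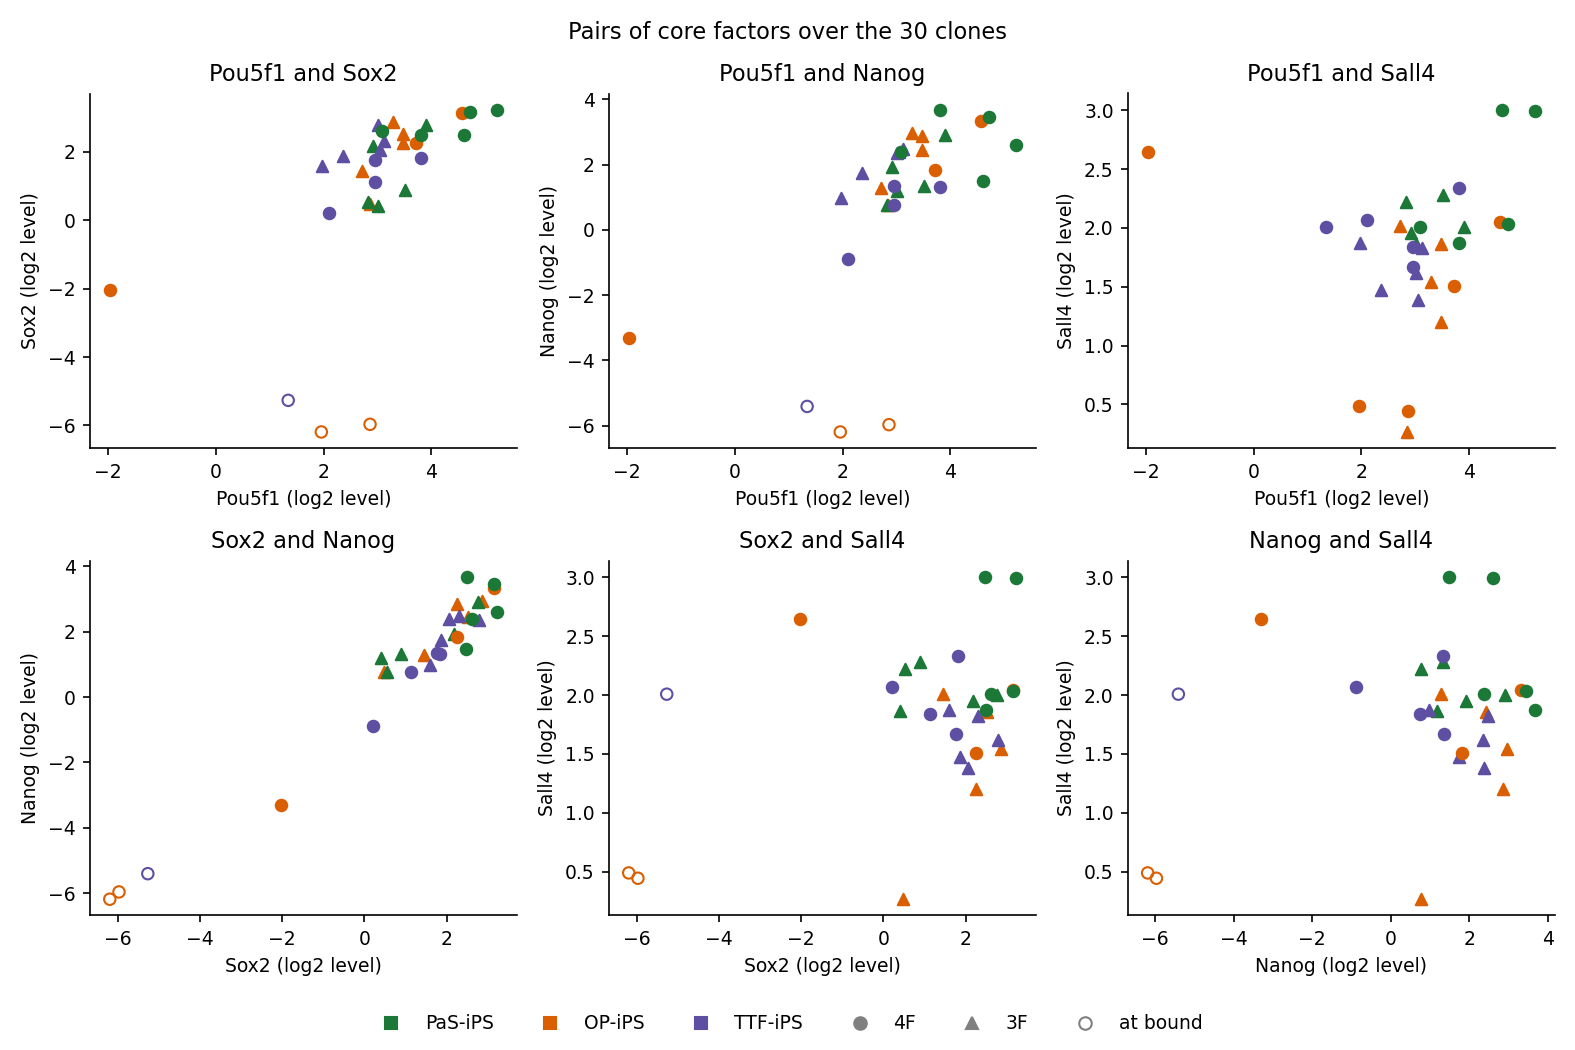
Log2 levels of each pair of genes (axes) in 30 clones; colours give the source, circles 4F- and triangles 3F-clones, and open symbols are clones with a signal at its bound. Over the filled points r is 0.820 to 0.925 for the 3 pairs among Pou5f1, Sox2 and Nanog and -0.184 to 0.118 for the pairs with Sall4, and over all points 0.567 to 0.980 and 0.118 to 0.419.

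These relations were set against those with all other genes. Ranked by r with Sox2 over the same 27 clones, Nanog came 18th of 15582 genes and Pou5f1 233rd, and ranked by r with Nanog, Sox2 came 24th and Pou5f1 232nd. Over those 27 clones 0.701% of the tested probes had an r with Pou5f1 as high as that of Nanog, and 0.738% as high as that of Sox2. Over all 30 clones, with dim signals at their measured level, Nanog came 927th (r = 0.591) and Sox2 1550th (r = 0.511) of 15578 genes by r with Pou5f1. Most like Sox2 was Esrrb, a nuclear receptor of the same network, at r = 0.961, followed by 1700012H05Rik, Uchl1, Dnajc6 and Dppa4 at 0.944 to 0.950, and most unlike were Rhog, Lrp10 and 5033414D02Rik at -0.92 to -0.90. Over all 30 clones at their bounds Rhog was at -0.491, Lrp10 at -0.450 and 5033414D02Rik at -0.837, against 0.746 to 0.985 for the 5 most like Sox2. For Nanog the closest were Phf11 (0.966), Tex14, Dmc1h, D14Ertd668e and 2410116G06Rik (0.949 to 0.957), of which Tex14 and Dmc1h are known from germ cells, and the most opposite Foxp4, 0710008K08Rik and Pcyt1a (-0.91 to -0.90). For Pou5f1 they were Scamp5 (0.913), Actr3b, Pycard, 5830415F09Rik and 2410081M15Rik (0.890 to 0.909), with Rcn2, Fkbp7 and Gstm5 (-0.88 to -0.86) at the other end. For Sall4 the closest were Gga2 (0.931), Tmem39a, Ing5, Fbxl10 and Pdzd3 (0.870 to 0.882), against B4galt4, Hdgfrp3 and Susd4 (-0.92 to -0.87). None of the 20 closest genes stood in the set of more than 1 of the 4 members. At 18th and 24th, Nanog and Sox2 also fell outside each other's 5 closest, so that sets this small do not tell members apart. The sets of Sox2 and Nanog were drawn over 27 clones and those of Pou5f1 and Sall4 over 30. All these ranks are descriptions over 27 or 30 clones that share slides and a scan session.

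The promoters of Nanog and Sox2 are shown since these genes went together most closely. Windows of 300 bases, from 250 before to 50 after the start, were taken from RefSeq on GRCm38.p6 and found for 3 of the 4 genes. The 250 bases before the start follow, with motif letters in capitals.
Nanog, chr6:122707239-122707488, + strand: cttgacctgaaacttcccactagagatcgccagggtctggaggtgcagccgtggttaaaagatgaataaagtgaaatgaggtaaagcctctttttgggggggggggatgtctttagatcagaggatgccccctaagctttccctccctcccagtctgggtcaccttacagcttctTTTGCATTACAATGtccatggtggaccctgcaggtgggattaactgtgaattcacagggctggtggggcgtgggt
Sox2, chr3:34649745-34649994, + strand: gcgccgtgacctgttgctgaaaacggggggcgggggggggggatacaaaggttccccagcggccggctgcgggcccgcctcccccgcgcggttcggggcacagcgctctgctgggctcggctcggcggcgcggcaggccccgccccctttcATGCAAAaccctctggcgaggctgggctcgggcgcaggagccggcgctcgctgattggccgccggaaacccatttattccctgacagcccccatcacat
The octamer core ATGCAAA and the Sox core CATTGT were searched on both strands. In Nanog the octamer core began at -75 and the Sox core at -67 relative to the start, on the reverse strand and 1 base apart, and together they make up the run in capitals. A Sox core, 1 base and an octamer core in this arrangement were found in 2 of 32851 promoter windows (0.00609%), both of them starts of Nanog, which was thus 1 of 27025 genes. In Sox2 an octamer core began at -99, and no Sox core was found in the window. The first of the Pou5f1 windows, at chr17:35505782-35506031, held neither, and the second, at chr17:35508557-35508806, held a Sox core at -158 and no octamer core. An octamer core was found in 4.63% and a Sox core in 12.6% of all windows, so that either alone is common. A match of letters is a description, not a site of binding.

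Close relatives of the 4 factors were followed with them, with 36.2% of all tested probes called for clones against ES cells and 5.34% for 3F against 4F. Called against ES cells were 1 of 3 SALL, 1 of 3 SOX and 1 of 2 POU genes. Of the SALL genes, Sall3 was lower in clones than in ES cells, at -2.77 (adjusted p = 0.0288 in limma) and lower in 3F- than in 4F-clones, at -1.46 (adjusted p = 0.0467), and Sall1 and Sall2 were not called in any comparison. Of the SOX genes tested (Sox1, Sox15 and Sox21), Sox21 was higher in clones than in ES cells by 1.79 (adjusted p = 0.000252 in limma), and its 3F to 4F difference was lower in TTF-iPS than in PaS-iPS clones, at -1.92 (adjusted p = 0.0480). With the slide as a random block the calls of Sall3 and Sox21 that involve the factor set were lost (adjusted p = 0.204 and 0.898 in limma). Of the POU genes tested, Pou2f1 was lower in clones than in ES cells, at -1.72 (adjusted p = 1.35e-05 in limma), and Pou3f1 was higher in 3F- than in 4F-OP-iPS clones by 1.62 (adjusted p = 0.0417), or 0.163 with that block.

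Of 7 measured genes known as targets of the Oct and Sox pair, 4 were lower in clones than in ES cells and none higher, where 36.2% of all tested probes were called in either direction, with a median of -2.31 against -0.11 over all tested probes. They were Lefty1 at -4.99 and Nodal at -2.31, both ligands of the TGF-beta family, Tdgf1, the Nodal co-receptor, at -3.35, and Zscan10 (Zfp206 on the array) at -2.35 (adjusted p = 0.000115, 0.0362, 0.00329 and 0.00454 in limma). Lefty1 was at 1.17, 1.53 and -0.33 in primary PaS, OP and TTF cells, within its range of -2.41 to 2.58 in clones. Its level thus does not set clones apart from the source cells. Of 27 measured partners of the core factors 11 were lower and 1 higher, beside the same 36.2%, with a median of -1.37. The 4 largest were Zfp42 (Rex1) at -5.34, Nr5a2, which can stand in for Pou5f1 in reprogramming, at -3.41, Gdf3 at -2.83 and Nr0b1 (Dax1) at -2.71 (adjusted p = 8.11e-06, 0.00141, 0.0282 and 0.0466 in limma, the last pair at 0.0548 and 0.0615 with the slide as a random block), and Klf2 was higher by 1.14. Klf2 was at 6.15 in EB-3 and 3.97 in RF8, and at 5.81 to 6.65 in clones, which thus lay around EB-3 and above RF8. EB-3 and RF8 also differed in Nodal (4.18 and 2.10), Zscan10 (3.33 and 1.27) and Nr0b1 (4.99 and 2.20). They were closer for Tdgf1 (4.15 and 3.04), Zfp42 (7.07 and 6.68) and Lefty1 (4.78 and 4.83). Over the partners the mean relative to the ES mean was 0.76 in EB-3 and -0.76 in RF8. All these values share the session difference named above.

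Between clone groups few of these genes were called. Zfp42 and Dnmt3l, 2 of the 27 partners, were higher in PaS-iPS than in OP-iPS clones, by 1.81 and 2.39 (adjusted p = 0.0442 and 0.0371 in limma), where 1.6% of all tested probes were called, and the median over the partners was 0.78 against 0.03 over all tested probes. With 3F against 4F, 2 of the 27 were called beside 5.34% of all probes, Dppa3 being higher by 2.37 and Dppa5a by 1.74 (adjusted p = 0.0495 and 0.0458 in limma). In OP-iPS clones alone, where 4.51% of probes were called, 3 partners, Dppa5a at 3.76, Zfp42 at 2.41 and Tbx3 at 2.18, and the target Nodal at 2.56 were higher with 3F (adjusted p = 0.0311, 0.0382, 0.0170 and 0.0451 in limma). For Tbx3 the interaction between OP-iPS and PaS-iPS clones was 3.22 (adjusted p = 0.0484 in limma). None of these calls for the factor set held with the slide as a random block, where the adjusted p in limma was 0.347 for Dppa3 and 0.325 for Dppa5a over all sources, 0.110 to 0.165 for the genes in OP-iPS clones and 0.0542 for the Tbx3 interaction, or 0.305 with the slide as a fixed term. With the random block the differences stayed near, at 2.22 for Dppa3 and 1.61 for Dppa5a over all sources. In OP-iPS clones they were 3.96 for Dppa5a, 2.52 for Zfp42, 2.08 for Tbx3 and 2.86 for Nodal. The Tbx3 interaction was 3.11, or 2.31 with the fixed term. Zfp42 and Dnmt3l kept their calls between PaS-iPS and OP-iPS clones with the random block (adjusted p = 0.0451 and 0.0356 in limma) and lost them with the fixed term (0.101 and 0.0839).

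Other genes of the network were followed in the clones with dim or low Sox2 and Nanog. Most of those shown were dim or well below ES cells, and Fbxo15 and Spp1 were nearer to them. Esrrb was not well above background in 4F-OP-iPS #1 and #3 and 4F-TTF-iPS #1 and was at -4.13 in 4F-OP-iPS #2. Dppa4 was dim in 4F-OP-iPS #1 and #3, at -3.31 in 4F-OP-iPS #2 and at -5.09 in 4F-TTF-iPS #1. Fbxo15, a target of the Oct and Sox pair, was at 4.98, 4.60, 4.07 and 4.12 in 4F-OP-iPS #1, #2 and #3 and 4F-TTF-iPS #1, which is -0.17 to -1.08 relative to the ES mean. Spp1, which encodes osteopontin, was at 5.90, 4.66, 6.21 and 6.36 in the same order, but at 7.70, 7.86 and 8.15 in primary PaS, OP and TTF cells, so that its level does not set clones apart from the source cells. Fbxo15 was at -5.14, -4.88 and -5.76 there. Fbxo15 and Spp1 were chosen after their values were seen. Utf1, Lefty1, Zscan10, Nodal and Tdgf1 were the other measured targets of the Oct and Sox pair. In these clones they lay at -7.21 to -2.40 relative to the ES mean. Over all 7 measured targets the mean relative to ES cells was -3.46, -4.52, -3.13 and -3.28 in the same order. The fibroblast and feeder marker mean of these clones relative to ES cells was 1.84, 1.63, 2.28 and 1.99, at the lower end of the 1.63 to 4.77 over all clones. These clones were picked for their levels, so that no group was made of them.

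Genes of the lineages next to the pluripotent cells were measured as a background of other cell types. All 8 primitive endoderm genes and 6 of 8 trophectoderm genes were higher in clones than in ES cells in limma, with medians of 4.72 and 3.12, as were 15 of the 20 fibroblast and feeder markers, with a median of 3.67. Of the last list the largest were Dcn at 5.98, Prrx1 at 5.37, S100a4 at 5.30 and Postn at 5.12. The ES arrays differed in this list, whose mean relative to the ES mean was 2.15 in RF8, within the range of 1.63 to 4.77 in clones. For the primitive endoderm list RF8 was at 0.98 and clones at 3.1 to 6.75, and for the trophectoderm list RF8 was at 0.43 and clones at 1.24 to 4.39. Over all tested probes 36.2% were called in this comparison, with a median of -0.11. The largest in the first list were Sox17 at 6.73, Gata6 at 5.95, Foxa2 at 5.76 and Afp at 4.78, and in the second Krt7 at 5.03, Elf5 at 4.51, Krt18 at 3.53 and Cdx2 at 2.79. Sorting markers of the sources were higher too, Pdgfra by 4.65 and Ly6a by 5.03. Their part in the differences of Sox2, Nanog and Sall4 from ES cells was not tested. With 3F against 4F, Cdx2, Hand1 and Krt18 were higher by 1.93, 2.45 and 1.00, as were Acta2, Postn, Lox and Col5a1 of the fibroblast and feeder list, by 2.05, 1.88, 1.52 and 1.06. These are 3 of 8 and 4 of 20 genes, beside 5.34% of all tested probes, and 0 of the 7 were called with the slide as a random block (adjusted p = 0.0954 to 0.314 in limma). In OP-iPS clones alone Cdx2 (2.47), Acta2 (3.24), Tgfbi (1.66) and Col5a1 (1.63) were higher with 3F, and in TTF-iPS clones Elf5 (-3.88) and Ly6a (-3.65) were lower, and none of these calls held with that block (adjusted p = 0.0865 to 0.420 in limma).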

How the data were processed

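Arrays of 30 iPS clones, 2 ES lines and 3 primary cell samples were used. The deposited scanner values are intensities, from which the authors' Agilent Feature Extraction (10.5.1.1 for clones, 10.7.3.1 for EB-3 and primary cells, 9.5.3.1 for RF8) had subtracted the background, with no scaling from array to array. A deposited table of the authors' log2 values, made in GeneSpring GX and centred on each probe's median, served as an alternative. Control spots and outlier flags were left out and spots of a probe averaged. Levels are the log2 of these intensities, less the log2 of the array's 75th percentile. A gene with several probes is given by the brightest on average over the clone and ES arrays.

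Differences were fitted with limma 3.58.1 in R 4.3.3, as 7 groups (6 of clones, and ES) in 1 fit over the 27623 probes for which no array of some group (1 group or more) fell short of being well above background, with Benjamini-Hochberg adjustment over all of them. Correlations, with permutation tests of 100000 resamples or exact enumeration under 10 clones, used scipy 1.17.1, numpy 2.4.6 and pandas 2.3.3 in Python 3.11.15. Both were tested on simulated data. The number of arrays limits the precision.

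The 4 genes and all gene lists were chosen with earlier results of these data known. Named were all called genes of a list or, where more than 4 were called, the 4 with the largest change, and for each of the 4 genes the 5 most similar and the 3 most opposite by Pearson's r over clones. Alternatives were normexp background correction (offset 50), quantile normalization, the authors' table, a floor under dim signals, no filter on dim probes, no fold minimum, the other Sall4 probe, leaving out single clones, and blocking on the slide or the clone number. Leaving out each ES array in turn, the slide as a block for the gene lists and the SDs over clones with dim signals at their bound were chosen after seeing the data.

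The clone numbers did not pair the clones. Deviations from the group means were correlated for 75 same-numbered pairs, of which 16 exceeded 0.1, and the median was -0.000787. Sox3, Pou3f2, Pou2f3 and Ptprc did not pass the filter and were not tested. Fgf4 and Prdm14 were not found by name on the array, and Pdgfra stands in 2 lists.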

Additional observations from a re-analysis of the deposited data

Results flagged for a closer look

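Of the 30 sets of 5 clones (5 probes in 6 groups) checked for a clone far from the others of its group, 2 held one, and chance would give about 1 in 20. In 4F-TTF-iPS clones, Sox2 in clone #1 was at -5.27, not well above background, and the nearest clone was at 0.21. In 3F-OP-iPS clones, the second Sall4 probe was at -2.26 in clone #1, with the nearest clone at -1.52. By the main Sall4 probe that clone was also the lowest of its group, at 0.27, but its gap to the next was not as large relative to the range.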

How the results depend on the processing

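Whether any of the 4 genes was called did not change under the background correction, the normalization, the authors' table, the floor, the filters or the slide as a block, in any of the comparisons between sources, factor sets or clones and ES cells. With the other Sall4 probe 0 genes were called against ES cells, and Sall4 turned to 0.42. Leaving out 1 array gave 0 to 2 calls for PaS-iPS against OP-iPS and for 3F against 4F (2 in each without 4F-OP-iPS #4, 1 in the latter without 4F-OP-iPS #5), and 0 to 1 against ES cells (0 without EB-3). Without 4F-OP-iPS #5 Nanog was called for 3F against 4F, at 2.41. In OP-iPS clones the factor-set difference was called without 4F-OP-iPS #4, #5 or 4F-TTF-iPS #1 for Nanog and Sox2, and without 3F-OP-iPS #1 for Nanog. Over every clone left out in turn, called or not, the values ran from 3.13 to 6.02 for Nanog and from 3.1 to 5.94 for Sox2. Pou5f1 against ES cells ranged from -1.72 to 1.16.

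Clone numbers do not pair the clones. With the clone number as a replicate block, 0 of the 4 genes were called between sources or between factor sets over all sources, and in OP-iPS clones Nanog (4.57) was called with an adjusted p of 0.0401 in limma. ES cells have no clone number, so that no paired value against them could be had. With the replicate block, r was 0.798 for Pou5f1 and Sox2, 0.794 for Pou5f1 and Nanog, 0.921 for Sox2 and Nanog, 0.146 for Pou5f1 and Sall4, -0.166 for Nanog and Sall4 and 0.0130 for Sox2 and Sall4. The slide as a fixed term could be fitted for part of the comparisons only.

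For Pou5f1 and Sox2, r was 0.345 in 3F-clones and 0.481 in TTF-iPS clones, and for Pou5f1 and Nanog 0.499 in PaS-iPS and 0.492 in TTF-iPS clones. For Pou5f1 and Sall4 it was -0.0593 within slides, -0.144 within groups, 0.669 in PaS-iPS clones, -0.304 in OP-iPS clones and -0.239 with the second Sall4 probe, and 0.00287 to 0.467 with each clone left out. For the correlation of Sox2 with Sall4 it was 0.00222 with normexp, 0.0317 after quantile normalization, 0.419 over 30 clones at their bounds, 0.0531 in 3F-clones and 0.263 in PaS-iPS clones, and -0.193 to 0.237 with each clone left out. For Nanog and Sall4 it was 0.325 over 30 clones at their bounds, -0.426 with the second probe, and -0.336 to 0.0133 with each clone left out. The causes were not tested. Signal over background limits Sox2 and Nanog in 3 clones.

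The number of probes called over the whole array, the background against which Nanog, Sox2, Pou5f1 and Sall4 are read, moved more. Between PaS-iPS and OP-iPS clones it was 443, against 163 with normexp, 277 with the slide as a fixed term and 1019 with no fold minimum. Between PaS-iPS and TTF-iPS clones it was 138, against 22 with normexp, 6 with the slide as a random block and 359 with no fold minimum, and between OP-iPS and TTF-iPS clones 6, with a range of 0 to 10. For 3F against 4F it was 1475, against 414 with normexp, 395 with the random block and 5857 with no fold minimum. In OP-iPS clones it was 1246, against 268, 168 and 2237 in that order, and in TTF-iPS clones 1595, against 478, 7 and 2790, and 4 with the slide as a fixed term. In PaS-iPS clones 5 were called, 177 with normexp and 0 with the clone number or the slide as a block or with the floor. For clones against ES cells 10001 were called, and 5160 with normexp. The interaction of OP-iPS with PaS-iPS clones had 179, against 96 with no filter on dim probes and 0 with the slide as a fixed term, and that of TTF-iPS with PaS-iPS clones 161, against 365 with no filter on dim probes, 247 with the floor and 0 with the random block.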
